A study of Mus musculus with 8 samples.

Results

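The genes that surround Capicua (Cic) on mouse chromosome 7 were described in cerebellum RNA, probe set by probe set. The members were the probe sets with 1 gene symbol whose gene starts between 5 and 45 Mb of chromosome 7 in the GRCm38 assembly, without those of Cic itself. They came to 4730 probe sets of 607 genes, out of 241576 probe sets on the array, 212097 of which carried 1 symbol, and out of 20352 genes. A probe set here is a small group of short probes below the level of the gene: the members' genes had a median of 6 of them and up to 102 (Ryr1), and 63 genes had 1. The members were fixed by position and not by their expression values, though the segment was set with earlier results of these data known.

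Whole cerebellum was taken from mice aged 28 days, 4 of genotype wild-type and 4 of genotype Cic-L-null, all of a mixed Swiss Webster (CD-1) strain background, and 1 Mouse Gene 1.0 ST array from Affymetrix was run per animal. Wild-type replicate 1 is labelled as extracted with Trizol and cleaned up on RNeasy columns, and the other 7 as prepared by the standard Affymetrix procedure. The construction of the Cic-L-null allele and the chromosome 7 haplotype of each animal were not known here. The gene value of Cic, the mean of its 21 probe sets, was 8.74, 8.57, 8.63 and 9.19 (log2) in the wild-type arrays and 7.50, 7.48, 7.62 and 7.54 in the Cic-L-null arrays, a difference of -1.25 (SE 0.12, limma adjusted p = 0.00818), with no overlap. All 10 cerebellum markers were measured, and their mean log2 value lay between 11.5 and 11.6 in every array. The 3 forebrain markers measured had means of 6.24 to 6.66.

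Cic encodes a transcriptional repressor that binds short octamers in DNA and is relieved of its activity by growth factor signalling through the MAP kinase cascade. In the brain it works in a complex with ataxin-1, the protein altered in spinocerebellar ataxia. Genes that lie close to an altered gene are inherited together with it, so animals chosen for the altered allele also share the neighbouring stretch of chromosome. A sequence difference under a probe, use of another exon and a change in RNA level each alter a probe set's signal, and these cannot be told apart here.

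To show where the Capicua octamer stands in the segment, promoter windows around each start from RefSeq (GRCm38.p6) were searched on both strands for TNAATGNA, in which N is any base, and for the stricter forms TCAATGAA, TCAATGGA, TGAATGAA and TGAATGGA, which it includes. Windows were found for 519 of the 607 genes. The general form was present in 58 of 619 windows of the segment (9.37%), against 11.7% of all 32851 windows, and a strict form in 3.23% against 3.84%. Of the 38 genes with a shift of the whole gene, 34 had windows, 48 in all. Pafah1b3, the gene of the segment that passed the test for an increase, had none and was not searched. The general form was present in 4 of the 48, those of Zscan18, Apoe, Zfp180 and Spred3. A strict form was present in 2 of them, Zfp180 and Spred3. The 250 bases before the start are printed for these 2, with the octamer in capitals, and for Klk6, the gene of the segment that passed the test for a decrease, in whose 250 bases neither window held a match. The Klk6 stretch is chr7:43824294-43824543 on the plus strand, that of Zfp180 is chr7:24081647-24081896 on the plus strand, and that of Spred3 is chr7:29168648-29168897 on the minus strand. These matches are letters in a window and not binding sites, and they were picked for printing after the expression values were seen.
Klk6: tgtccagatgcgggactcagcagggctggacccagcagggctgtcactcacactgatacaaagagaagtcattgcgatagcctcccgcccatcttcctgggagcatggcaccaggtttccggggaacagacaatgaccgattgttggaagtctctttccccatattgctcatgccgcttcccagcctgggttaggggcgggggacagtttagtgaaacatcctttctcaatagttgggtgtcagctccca
Zfp180: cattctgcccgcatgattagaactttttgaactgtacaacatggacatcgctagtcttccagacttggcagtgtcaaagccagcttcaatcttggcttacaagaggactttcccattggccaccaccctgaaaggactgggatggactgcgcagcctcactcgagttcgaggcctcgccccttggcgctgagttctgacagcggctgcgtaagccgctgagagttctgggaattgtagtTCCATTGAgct
Spred3: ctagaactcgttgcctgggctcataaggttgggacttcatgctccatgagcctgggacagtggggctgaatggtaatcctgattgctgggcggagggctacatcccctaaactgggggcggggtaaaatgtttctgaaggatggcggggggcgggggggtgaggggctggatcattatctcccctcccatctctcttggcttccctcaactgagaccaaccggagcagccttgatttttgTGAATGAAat
Zfp180, a zinc finger gene, had wild-type log2 values of 8.84, 8.80, 8.83 and 8.94 and Cic-L-null values of 8.49, 8.39, 8.64 and 8.50, a difference of -0.35 (SE 0.07, adjusted p = 0.0861). Spred3, which encodes an inhibitor of Ras and MAP kinase signalling, had wild-type values of 7.95, 7.83, 7.91 and 7.72 and Cic-L-null values of 8.07, 8.05, 8.09 and 8.02, a difference of 0.20 (SE 0.06, adjusted p = 0.312). The groups overlapped in neither gene, the 2 genes differed in opposite directions, and neither passed the test over all genes.

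Along the segment, more probe sets separated the genotypes than in the rest of the genome, and the excess was larger on the lower side. The groups did not overlap, meaning that all 4 Cic-L-null arrays lay on 1 side of all 4 wild-type arrays, in 299 of 4730 probe sets (6.32%), where the share over the whole array was 4.3%. They were lower in 176 (3.72%, against 1.91% over the array) and higher in 123 (2.60%, against 2.39%). On the 19 other chromosomes with at least 5344 probe sets each, the share without overlap ran from 3.28% on chromosome 17 to 4.75% on chromosome 18, and the share lower from 1.57% to 2.31%. Over the remainder of chromosome 7, outside the segment and the 40 Mb after it, the share was 3.85%. At the level of genes, whose value is the mean of their probe sets, 58 of 607 did not overlap (9.56%, against 5.94%), 33 lower (5.44%, against 2.91%) and 25 higher (4.12%, against 3.02%). In the 40 Mb after the segment 43 of 280 genes did not overlap (15.4%), a larger share than in the segment. The median gene difference was -0.02 in the segment and -0.01 over all genes. No test of the shares themselves was made.

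By bins of 5 Mb the share of separated probe sets was not highest in the bin that holds Cic. From the first bin to the eighth it was 3.27%, 3.08%, 7.14%, 5.43%, 6.30%, 6.07%, 11.3% and 6.46%, and Cic lies in bin 5. The first 2 bins, where 54.3% and 55.8% of probe sets belong to multigene families, were below the array's share. Bin 7 was the highest with 30 of 266 probe sets, 18 of them higher. In the stretch from 45 to 85 Mb, which is not part of the segment, 288 of 3253 probe sets did not overlap (8.85%), and its second bin reached 30.1% with 22 of 73 probe sets of 8 genes. Within 5 Mb of Cic the share was 5.93%, within 10 Mb 6.61% and within 15 Mb 6.51%. No test of the order of bins was made, and probe sets of 1 gene are not independent of each other.

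**Figure D1:**
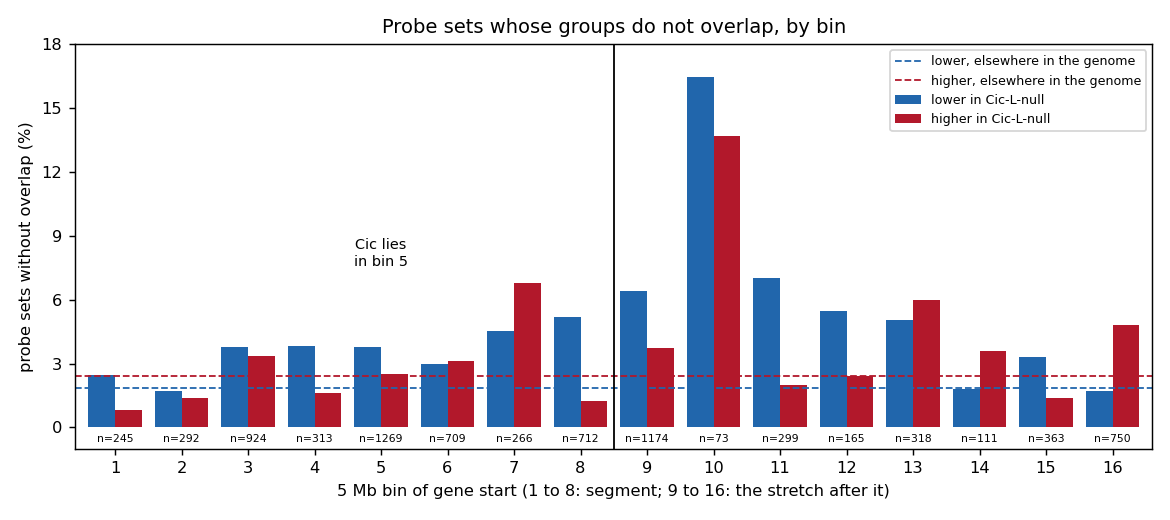
Percent of probe sets (y axis) whose 4 Cic-L-null values all lie below (blue) or above (red) the 4 wild-type values, by 5 Mb bin of gene start (x axis), with the number of probe sets under each bin and dashed lines for the genome outside chromosome 7. Bin 7 reaches 6.77% higher and bin 8 5.20% lower, while bin 10, past the segment and with 73 probe sets, stands at 16.4% lower and 13.7% higher.

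Few of these differences passed a test over the whole array. Of the 607 genes, 2 passed at an adjusted p under 0.05 in limma's two-sided test, or 0.33%, where 28 of 20352 genes (0.138%) did so over the array, and 10 had an adjusted p under 0.1. At an unadjusted p under 0.05 there were 90 (14.8%, against 9.26% over all genes). No single probe set of the segment passed (smallest adjusted p = 0.129), where 1 of 241576 (0.000414%) did so over the array. At an unadjusted p under 0.05 there were 455 (9.62%, against 6.8%). With trended and robust variances 9 genes and 4 probe sets of the segment passed. Each animal was a separate array, and 4 arrays a group limit the precision of every value here.

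**Figure D2:**
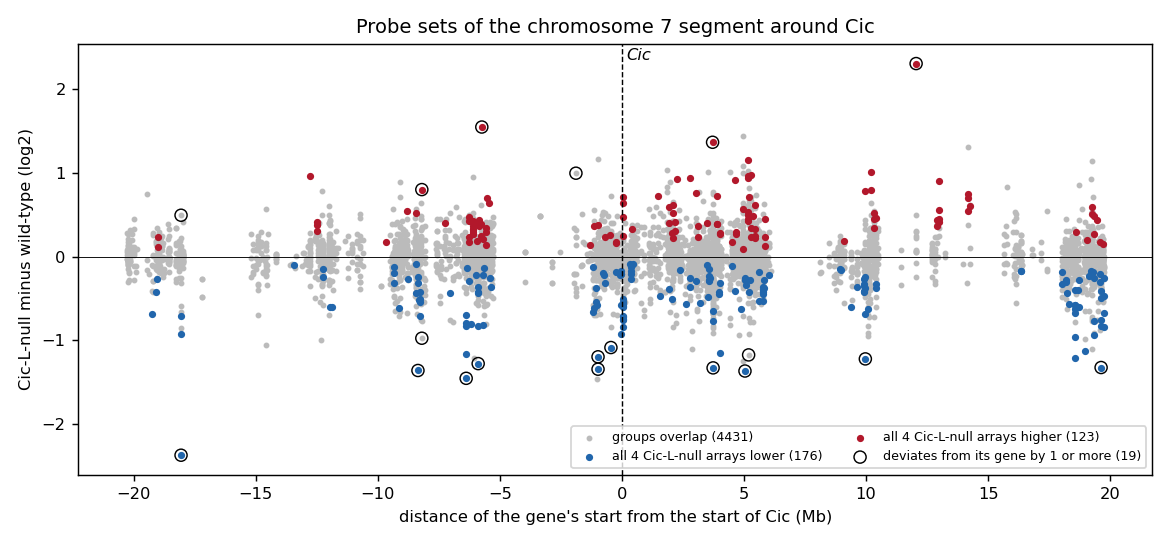
Each point is 1 of the 4730 probe sets, placed by the distance of its gene's start from that of Cic in Mb (x axis) and by the mean Cic-L-null minus wild-type log2 value (y axis), blue or red where all 4 Cic-L-null arrays were lower (176) or higher (123) than all wild-type arrays. Black circles mark the 19 probe sets that deviate from the rest of their gene by 1 log2 unit or more, which lie on both sides of Cic.

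The genes directly next to Cic were mostly a little lower. Of the 20 measured genes closest in order, 10 on each side, 16 were lower and 4 higher in Cic-L-null, with a median difference of -0.10, where 57.0% of the segment's genes and 53.0% of all genes were lower, and 1 passed the test. Of their 142 probe sets, 23 did not overlap (16.2%, against 4.3% over the array), 9 of 77 before Cic and 14 of 65 after it. Those 14 all belonged to Pafah1b3 and Tmem145, which differed in opposite directions, and probe sets of 1 gene are not independent of each other. At the gene level the groups were apart in 2 of the 20 (where 5.94% of all genes are), Pafah1b3 and Tmem145, both after Cic. Pafah1b3, the next gene, encodes a catalytic subunit of the platelet-activating factor acetylhydrolase of brain. Its values were 8.22, 8.24, 8.33 and 8.24 in wild-type and 8.72, 8.62, 8.72 and 8.61 in Cic-L-null. Every Cic-L-null array was above every wild-type array. Pafah1b3 rose by 0.41 (SE 0.06), or 1.33-fold, with an adjusted p of 0.0258, and all 6 of its probe sets were higher, by 0.19 to 0.71. The call held without wild-type replicate 1 and was lost when any other array was left out, with adjusted p up to 0.120 (without wild-type replicate 4), while the difference stayed between 0.39 and 0.43. It was also lost with the median of its probe sets as the value (adjusted p = 0.0603) and without its most deviating probe set (adjusted p = 0.0824).

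Tmem145, the third gene after Cic, encodes a transmembrane protein. Its values were 9.13, 8.84, 8.82 and 9.52 in wild-type and 8.46, 8.52, 8.57 and 8.52 in Cic-L-null. The Cic-L-null arrays were tight (SD 0.05) and all lay below the wild-type arrays, which spread more (SD 0.33). The difference was -0.56 (SE 0.14, adjusted p = 0.186), all 15 probe sets were lower, by -0.22 to -0.84, and it did not pass. Between these 2 lies Prr19, with 1 probe set and a difference of 0.01 (SE 0.07). On the other side, Erf, a repressor of the ETS family that MAP kinase controls, differed by -0.10 (SE 0.10, adjusted p = 0.848) over 3 probe sets. Gsk3a, a kinase of the insulin and Wnt pathways, differed by -0.10 (SE 0.08, adjusted p = 0.783). Zfp526 had 7 of 7 probe sets lower and a difference of -0.33 (SE 0.10, adjusted p = 0.310), with overlapping groups. Grik5, a kainate receptor subunit, differed by 0.09 (SE 0.06, adjusted p = 0.706), and Lipe, the hormone-sensitive lipase, by -0.12 (SE 0.07, adjusted p = 0.671).

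Whole-gene shifts were defined over the 448 genes with at least 4 probe sets: no overlap of the gene values, at least 80% of the probe sets in the gene's direction, and a median probe set difference of at least 50% of the mean one. They were found in 38 genes (8.48%, against 4.98% of all 15561 such genes), 20 lower and 18 higher. In the stretch after the segment they were found in 24 of 224 (10.7%). Their sizes were modest, from -0.66 to 0.73 with a median size of 0.30, and in 24 of the 38 every probe set lay on the same side. Both group means were above 4.38 (log2) in all 38, the median of the olfactory receptor genes and the limit used here for dim genes. The forebrain markers, chosen as genes that should be low, had means of 6.24 to 6.66. Being above the limit therefore does not show that a gene is expressed.

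The lowest gene value difference of the segment was that of Zfp93, a zinc finger gene (-0.70, adjusted p = 0.266), whose groups overlapped. The largest decrease among the 38 was that of Klk6, a secreted serine protease that oligodendrocytes make. Klk6 had values of 7.95, 7.61, 7.90 and 7.93 in wild-type and 7.14, 7.20, 7.34 and 7.08 in Cic-L-null, with no overlap. Klk6 fell by 0.66 on the log2 scale (SE 0.09, adjusted p = 0.0258), or 1.57-fold, and 8 of its 9 probe sets were lower, the exception being the dimmest (0.14). The call held without wild-type replicate 2 and without Cic-L-null replicate 3 and was lost without any other array, with adjusted p up to 0.113 (without wild-type replicate 4) and a difference between -0.62 and -0.74. It was also lost with a covariate of Y-linked genes (adjusted p = 0.0544) and with the median of its probe sets (adjusted p = 0.131). The 9 measured oligodendrocyte markers were all lower too, 5 without overlap (where 5.94% of all genes are), 3 at an unadjusted p under 0.05 (where 9.26% of all genes are) and 0 passing the limma test, with a median of -0.14 and a mean level of 10.24 to 10.35 in wild-type against 10.07 to 10.16 in Cic-L-null. Their part in the Klk6 result was not tested, and fewer cells of a type cannot be told apart from less RNA per cell in whole tissue. Klk8, a kallikrein of neurons, lies in the same gene cluster and differed by 0.03 (SE 0.09), with 3 of 6 probe sets lower.

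The other large decreases did not pass the test over all genes. Pglyrp1, a peptidoglycan recognition protein of innate immunity, had 8.10, 7.49, 7.51 and 8.23 in wild-type and 7.10, 7.07, 7.36 and 7.25 in Cic-L-null, a difference of -0.64 (SE 0.16, adjusted p = 0.211). Its wild-type arrays formed a high and a low pair, and the Cic-L-null arrays lay below both. Rhpn2 had 7.21, 6.80, 6.94 and 7.08 against 6.57, 6.48, 6.48 and 6.65, a difference of -0.46 (SE 0.09, adjusted p = 0.0917), with 16 of 16 probe sets lower. Zfp109, a zinc finger gene, differed by -0.36 (SE 0.10, adjusted p = 0.256), with 5 of 5 lower. Calm3, Alkbh6 and Ccdc61 complete the 8 largest decreases, and each of these 3 also held a deviating probe set, which is part of its gene value. The mean of the other probe sets differed by -0.18 in Calm3, -0.20 in Alkbh6 and -0.28 in Ccdc61. Ccdc61 met the rule narrowly, with a median probe set difference of -0.19 and a gene value difference of -0.36.

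Among the 18 increases, Zfp939 was the largest, a zinc finger gene whose family shares sequence, so that its probe sets may read relatives too. Zfp939 had 7.96, 7.51, 7.18 and 7.03 in wild-type and 8.17, 8.11, 8.12 and 8.21 in Cic-L-null, a difference of 0.73 (SE 0.16, adjusted p = 0.147). The wild-type arrays were spread and the Cic-L-null arrays tight (SD 0.41 and 0.04). With any 1 array left out the difference was 0.60 to 0.91 (limma adjusted p from 0.0300 to 0.370). Among these leave-one-out fits it passed only without wild-type replicate 1, whose label names another extraction. With array weights and all arrays kept it passed as well (0.81, limma adjusted p = 0.0499). The part of the extraction was not tested. Kirrel2, an immunoglobulin-type cell adhesion protein, had 6.84, 6.97, 6.99 and 6.84 against 7.26, 7.63, 7.25 and 7.49, a difference of 0.50 (SE 0.09, adjusted p = 0.0754), with 13 of 13 probe sets higher. Tdrd12, a piRNA pathway protein of germ cells, had 5.59, 5.58, 5.62 and 5.49 against 5.95, 5.98, 5.86 and 5.90, a difference of 0.35 (SE 0.06, adjusted p = 0.0582), in a gene of low level. Apoe, the main lipid carrier made by astrocytes, had 12.12, 12.09, 11.98 and 11.98 against 12.28, 12.52, 12.17 and 12.42, a difference of 0.30 (SE 0.08, adjusted p = 0.233), with 5 of 5 probe sets higher. Mia differed by 0.33 (adjusted p = 0.186), 1600014C10Rik by 0.32 (adjusted p = 0.266) and Zscan18 by 0.30 (adjusted p = 0.186), each with every probe set higher.

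**Figure D3:**
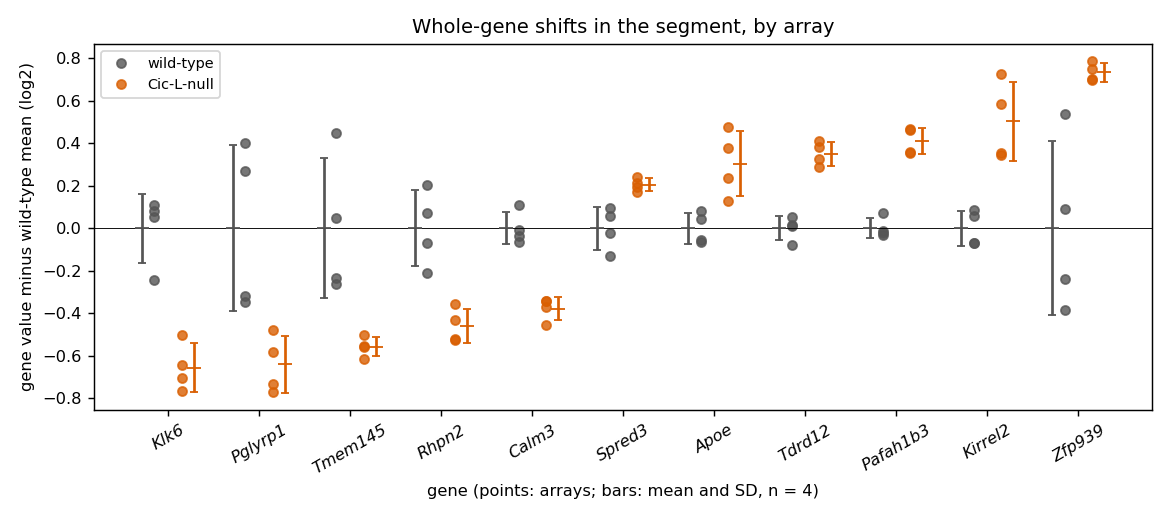
Gene value of each array minus the wild-type mean of that gene (y axis, log2) for 11 genes of the segment with a whole-gene shift (x axis), grey for wild-type and orange for Cic-L-null, with mean and SD of 4 arrays. In all 11 the Cic-L-null points lie on 1 side of the wild-type points, and Klk6 and Pafah1b3 are the 2 that passed the test.

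Gene lists by function, kept to the members in the segment, were set beside the median of -0.01 over all genes. Of all genes 0.138% passed the test (0.639% with trended and robust variances). An unadjusted p under 0.05 was found in 9.26%, and 5.94% had groups that did not overlap. Of 13 synapse and excitability genes 10 were lower and 3 higher, 2 without overlap and both lower, with a median of -0.07, 4 at an unadjusted p under 0.05 and 0 passing in limma, or 1 (Calm3) with trended and robust variances. The lowest were Calm3, a calmodulin gene (-0.38), Slc8a2, a sodium and calcium exchanger (-0.22, adjusted p = 0.267), and Fxyd7, a regulator of the sodium pump (-0.37, adjusted p = 0.332, groups overlapping). Of 12 myelin and glia genes 8 were lower and 4 higher, 2 without overlap, with a median of -0.01, 2 at an unadjusted p under 0.05, and Klk6 alone passed. In that list Mag, a myelin adhesion protein, differed by -0.11 (SE 0.07), and Tyrobp, a microglial adaptor, by 0.14 (adjusted p = 0.642). Of 14 kinase signalling and transcription genes 8 were lower and 6 higher, 3 without overlap, with a median of -0.02. Among them 3 had an unadjusted p under 0.05 and 0 passed in limma with either variance model. Those 3 were Spred3, Akt2, a kinase of insulin signalling (0.21, adjusted p = 0.335), and Ppp5c, a phosphatase (-0.16, adjusted p = 0.378). Of 9 DNA repair and cell division genes 4 were lower and 5 higher, 1 without overlap, with a median of 0.01, 2 at an unadjusted p under 0.05 and 0 passing in limma with either variance model. Ercc2, a helicase of nucleotide excision repair, was lowest there (-0.30, adjusted p = 0.192). Ercc1, which also acts in that repair, differed by 0.06 (adjusted p = 0.867). Pop4, a subunit of RNase P, was highest in that list (0.47, adjusted p = 0.251). Of 11 ribosome, RNA and proteasome genes 5 were lower and 6 higher, with a median of 0.01, 0 without overlap, 1 at an unadjusted p under 0.05 and 0 passing in limma with either variance model. Their smallest p belonged to Psmc4 (-0.14, adjusted p = 0.519), Psmd8 (0.09, adjusted p = 0.732), both of the proteasome, and Polr2i of RNA polymerase II (-0.08, adjusted p = 0.831, with the sign turned to 0.09 when the median of its probe sets was used).

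Pop4 had groups that overlapped through 1 array only, and its difference stayed between 0.39 and 0.61 with any 1 array left out. Its values were 9.18, 8.65, 8.59 and 8.50 in wild-type and 9.13, 9.28, 9.23 and 9.15 in Cic-L-null, so that wild-type replicate 1 alone overlapped the other group. All 8 Pop4 probe sets were higher, and without wild-type replicate 1, whose label names another extraction, the difference was 0.61 (SE 0.06) with an adjusted p of 0.0286.

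Single probe sets that left the rest of their gene were looked for with a deviation, the value of a probe set minus the mean of the other probe sets of its gene on the same array. A shift of the whole gene leaves this deviation unchanged, and 1 strongly changed probe set pushes those of its sister probe sets the other way. The deviations of the 2 groups did not overlap in 211 of 4414 probe sets of the segment (4.78%, against 2.87% over the array). None passed limma's test over all 203444 deviations (smallest adjusted p = 0.314), where 1 (0.000492%), in the stretch after the segment, did so over the array. At an unadjusted p under 0.05 there were 337 (7.63%, against 5.02%), and no alternative setting gave a call in the segment.

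A deviation of 1 log2 unit or more without overlap was reached by 19 probe sets of 16 genes, 13 lower and 6 higher, or 0.430% of the segment's probe sets, against 0.156% over the array. In the stretch after the segment the share was 0.731%, and on the other chromosomes it ran from 0.0585% to 0.229%. Of the 19, 9 belonged to multigene families, and without families 10 remained (0.282%). With the median of the sister probe sets as reference 16 were found, 13 of them the same. In 13 of the 19 both group means lay above the dim limit of 4.37, and in 6 at least 1 did not: those of Zfp61 (10560833), Ryr1, Ccdc61, Gm5893, Map4k1 and Ppp1r37, whose differences are therefore read against a dim level. Just inside the limit of 1 were Psg16 (1.01) and Ercc2 (-1.02), and just outside 2410002F23Rik (-0.99) and Zfp27 (0.98). The 19 are named below because they met this limit, with none past the test.

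In Calm3, 1 of the genes for the calcium sensor calmodulin, probe set 10560309 stood apart from its sisters. It read 11.73, 11.40, 11.45 and 12.04 in wild-type and 10.36, 10.25, 10.37 and 10.20 in Cic-L-null, a difference of -1.36 (SE 0.15, adjusted p = 0.129). The other 5 probe sets of Calm3 differed by -0.05 to -0.31. The Cic-L-null arrays were more than 1 log2 unit below the lowest wild-type array in that probe set, whereas the mean of the others was 11.96 to 12.05 in wild-type and 11.73 to 11.83 in Cic-L-null, also without overlap. The gene value of Calm3 differed by -0.38 (SE 0.06, adjusted p = 0.0539), and by -0.18 (adjusted p = 0.278) when its most deviating probe set was left out.

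Alkbh6, of the AlkB family of dioxygenases, and Ercc2 had the same form, a deviating probe set in a gene that was also lower as a whole. Alkbh6 probe set 10551869 read 9.79, 9.71, 9.69 and 10.43 in wild-type and 8.60, 8.64, 8.24 and 8.68 in Cic-L-null, a difference of -1.37 (SE 0.19), while its 5 sisters differed by -0.05 to -0.27. Ercc2 probe set 10550687 read 8.61, 8.41, 8.32 and 8.95 against 7.23, 7.08, 7.75 and 7.12, a difference of -1.28 (SE 0.19), while its 22 sisters ran from -0.83 to 0.16 with a median of -0.27. In Ccdc61, a centrosome and cilium protein, the 3 probe sets numbered 10560425, 10560426 and 10560428 differed by -0.83, -1.17 and -1.45, and the first 10 by -0.44 to 0.14. Only the last of the 3 met the limit, with values of 5.30, 5.73, 5.23 and 5.91 against 4.06, 3.91, 4.24 and 4.16, the latter all below the dim limit. The groups did not overlap in those 3 Ccdc61 probe sets or in the named ones of Alkbh6 and Ercc2.

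**Figure D4:**
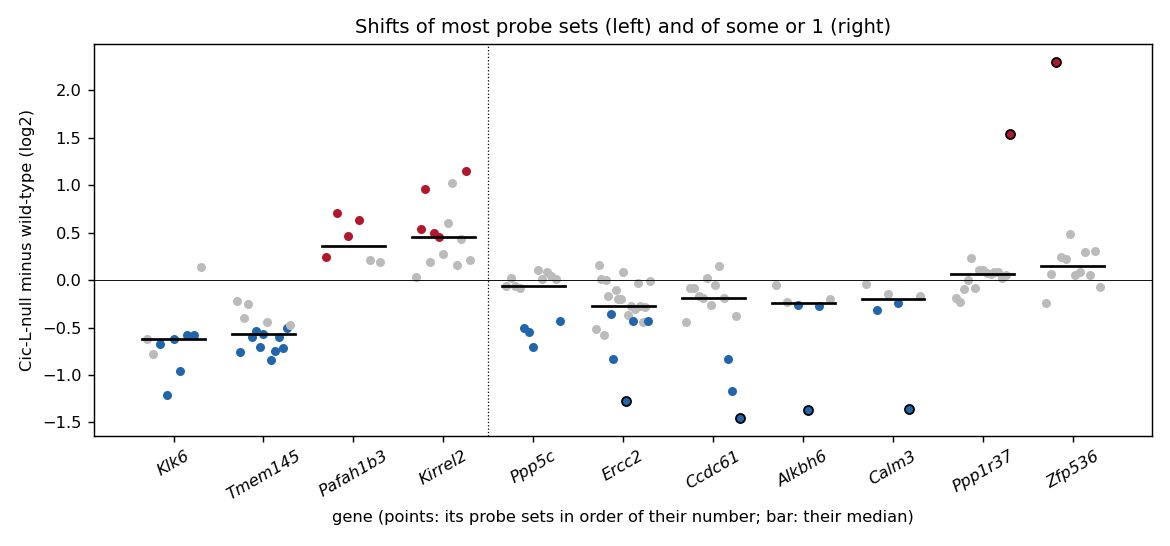
Mean Cic-L-null minus wild-type log2 value (y axis) of every probe set of 11 genes (x axis) in order of probe set number, blue or red where the groups do not overlap, with a black edge where the probe set deviates by 1 or more and a bar at the median. Left of the dotted line most probe sets lie on 1 side, as in Tmem145 (-0.22 to -0.84), and right of it 1 or a few stand away from the bar, as in Zfp536 (2.30).

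Ppp5c, a serine and threonine protein phosphatase, showed a run of neighbouring probe sets below the limit of 1. Ppp5c probe sets 10560320, 10560321 and 10560322 differed by -0.50, -0.55 and -0.70, and 10560328 by -0.43, all without overlap, while the other 9 ran from -0.08 to 0.10. The strongest read 12.17, 12.20, 12.16 and 12.50 in wild-type and 11.53, 11.51, 11.61 and 11.56 in Cic-L-null. The gene value of Ppp5c, at -0.16 (SE 0.06, adjusted p = 0.378), therefore averaged 4 lowered probe sets with 9 near 0. Slc8a2 was similar, with -0.70 and -0.61 in probe sets 10550267 and 10550273 and -0.21 to -0.00 in its other 8. All 10 were lower, however, and Slc8a2 met the rule for a whole-gene shift, which Ppp5c did not. Ppp1r14a, an inhibitor of myosin phosphatase, had a probe set at -1.15 (SE 0.17) among 4 and a gene value of -0.45 (SE 0.07, adjusted p = 0.0579). Ppp5c and Ppp1r14a were singled out for these patterns after their values were seen.

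The largest deviation upward was in Zfp536, which encodes a zinc finger repressor of neuronal differentiation. Zfp536 probe set 10562535 read 6.23, 6.73, 6.69 and 4.37 in wild-type and 8.46, 7.99, 8.49 and 8.29 in Cic-L-null, a difference of 2.30 (SE 0.49, adjusted p = 0.420), while its 11 sisters ran from -0.24 to 0.49. Every Cic-L-null array was more than 1 log2 unit above the highest wild-type array, and wild-type replicate 4 was far below the others. In Ppp1r37, a regulatory subunit of protein phosphatase 1, probe set 10560547 read 3.003, 3.97, 4.15 and 3.60 against 5.22, 5.01, 5.11 and 5.57, a difference of 1.54 (SE 0.25, adjusted p = 0.304). All wild-type values of that probe set were below the dim limit, and the mean of the other 14 was 9.32 to 9.42 in wild-type and 9.35 to 9.43 in Cic-L-null. Map4k1, a kinase of blood cells, had a probe set that differed by 1.36 (SE 0.45), with 3.22, 5.13, 4.25 and 4.79 against 5.22, 6.46, 5.15 and 6.02, a narrow gap between noisy groups.

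**Figure D5:**
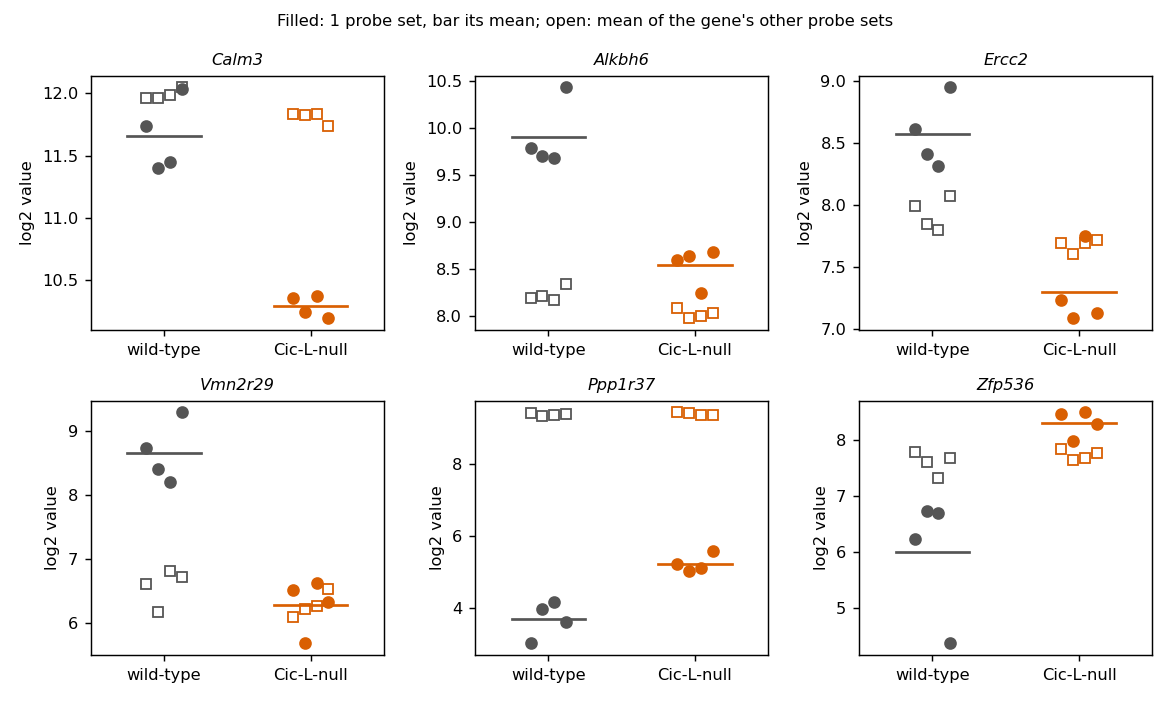
Log2 value (y axis, scaled per panel) of the deviating probe set (filled, bar at its mean) and of the mean of the other probe sets of the same gene (open) in each array of both genotypes (x axis), for Calm3, Alkbh6, Ercc2, Vmn2r29, Ppp1r37 and Zfp536. The filled points of the 2 genotypes do not overlap in any panel, while in Ppp1r37 the open points stay at 9.32 to 9.43.

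Vmn2r29, a vomeronasal receptor gene of a large family whose probes can read relatives, had the largest deviation downward. Vmn2r29 probe set 10559850 read 8.73, 8.41, 8.20 and 9.28 in wild-type and 6.52, 5.68, 6.62 and 6.32 in Cic-L-null, a difference of -2.37 (SE 0.28, adjusted p = 0.136). The 12 sisters ran from -0.93 to 0.49, and 10559847, which deviated by 1.03, differed by 0.49 itself with overlapping groups. Zfp61 had a pair of low probe sets, 10560833 (-1.34) and 10560838 (-1.20), while its other 7 ran from -0.21 to 0.15. Psg16, a pregnancy-specific glycoprotein, held a deviation in each direction, with probe set 10550410 at 0.80 and 10550414 at -0.97. Nlrp5, an oocyte protein, and the predicted gene Gm5893 had probe set differences of 0.99 and -1.09. The groups overlapped in that Nlrp5 probe set and in 10550414 of Psg16. These genes, and Zfp536, were counted with multigene families by the start of their symbols, which for Gm5893 marks a predicted gene rather than a family, and what the probe sets read besides them was not tested.

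The remaining deviating probe sets were lower. Fuz, a protein of cilium formation, had a probe set at -1.32 (SE 0.33) with a median of 0.01 over the other 16. Ryr1, the calcium release channel of muscle that Purkinje cells also use, had 1 of 102 probe sets at -1.33 (SE 0.25), with 5.36, 4.70, 4.53 and 5.74 against 3.64, 3.87, 3.82 and 3.69, the latter all below the dim limit. Nphs1, the nephrin gene beside Kirrel2, had 1 of 32 at -1.17 (SE 0.39), and its groups overlapped. Gpatch1, an RNA splicing protein, had a probe set at -1.22 (SE 0.31) and another 3 of its 21 that were lower without overlap (-0.24 to -0.69). Across the 16 genes with a deviating probe set, 4 also had a whole-gene shift, Calm3, Alkbh6, Ccdc61 and Ercc2, all lower.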

How the data were processed

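RNA of 8 cerebella was measured on 8 arrays. The deposited values are log2 expression values per probe set, made by the authors with RMA; the submitters' processing notes name Affymetrix Power Tools as the program. Neither its version nor the annotation's build is given in the sources used here. No array gave a missing value. Probes were named through GEO's platform annotation: 212097 probe sets carry 1 symbol, 4475 several and 25004 none. Of the segment's symbols 112 were updated through RefSeq synonyms, and positions were taken from the RefSeq table of GRCm38.p6. Groups and replicate numbers come from the titles. Gene values (mean of a gene's probe sets), probe sets and deviations (genes with 4 or more probe sets) were each fitted with limma 3.58.1 in R 4.3.3 (lmFit, eBayes, two-sided, Benjamini-Hochberg over all features, threshold 0.05) after the steps were tested on simulated data. The members, lists and limits were chosen with earlier results of these data known. Named genes were the neighbours of Cic, called genes, the 8 largest whole-gene shifts in each direction and up to 3 members with the smallest p of each list; genes added after their values were seen are marked as such. Multigene families were set by symbol, and 217 genes of the segment belong to them. Marker lists also covered choroid plexus (8 measured, 6 lower, 1 at an unadjusted p under 0.05), blood (2 measured, 1 lower, 1 at that p), meninges (6 measured, 4 lower, 2 at that p) and microglia (5 measured, 2 lower, 0 at that p), with 0 genes past the limma test in each. Samples with the same replicate number did not deviate together throughout (correlations 0.219, 0.000325, 0.207 and 0.0262), so the number was not used in the fit. Alternatives changed the variance model, array weights, a covariate of Y-linked genes, the dim limit (median of 985 olfactory receptor genes), the normalization, the gene value, the reference of the deviation and the arrays used. No count or depth exists for arrays, and their number limits the precision.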

Additional observations from a re-analysis of the deposited data

Results flagged for a closer look

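Among 102 groups of 4 values of named genes and probe sets, 6 held an array far from the other 3, where chance alone flags about 1 in 20 groups. Klk6 was 7.61 in wild-type replicate 2 against 7.90 to 7.95 in the other wild-type arrays. Alkbh6 was 8.69 in wild-type replicate 4 against 8.42 to 8.46, and its probe set 10551869 was 10.43 in that array against 9.69 to 9.79. Ccdc61 was 6.53 in Cic-L-null replicate 4 against 6.85 to 6.90. Grik5 was 9.33 in Cic-L-null replicate 1 against 9.28 to 9.29. Probe set 10550414 of Psg16 was 5.14 in wild-type replicate 2 against 5.86 to 6.01.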

How the results depend on the processing

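The 2 genes called in the segment became 9 with trended and robust variances, 7 with array weights, 1 with the covariate of Y-linked genes (Pafah1b3), 1 without the most deviating probe set of each gene (Klk6) and 0 with gene values taken as medians of probe sets, and 0 to 3 when 1 array was left out. With the replicate block 0 genes, 0 probe sets and 0 deviations were called in the segment, and 0 genes over the array (adjusted p = 0.0783 for Klk6 and 0.0824 for Pafah1b3). The 0 probe sets called became 4 with trended and robust variances (Calm3 10560309, Ppp5c 10560322, Vmn2r29 10559850 and Alkbh6 10551869), and deviations gave 0 in every setting; when 1 array was left out both gave 0 to 0. Over the array 0.639% of genes and 0.0294% of probe sets were called with trended and robust variances. The share of genes called there was 0.265% with array weights and 0.0884% with the covariate of Y-linked genes. The cause of these moves was not tested. The share of probe sets without overlap was 8.31% to 12.03% with 1 array left out (12.03% when wild-type replicate 1 was out, 10.3% for wild-type replicate 3, 9.89% for Cic-L-null replicate 2 and 10.1% for Cic-L-null replicate 3), where the array's own share was 6.54% to 9.53%, since fewer arrays separate more easily. Whole-gene shifts then came to 41 to 57 and deviating probe sets to 16 to 33 (33 when wild-type replicate 1 and 32 when wild-type replicate 2 was out). Over the array the share with a whole-gene shift also rose, from 4.98% to between 5.68% and 9.32%. That of deviating probe sets rose from 0.156% to between 0.249% and 0.352%. Without multigene families 10 deviating probe sets were found. These leave-one-out and class alternatives were chosen after seeing the data. Polr2i turned from -0.083 to 0.090 with the median of its probe sets, the cause of which was not tested. Of the other values of named genes 511 kept direction and side of the threshold, 13 passed it newly and 19 no longer passed, and 319 of 319 deviations kept theirs. Quantile normalization, median centring and the dim limit gave 3 genes each, where 0.152%, 0.138% and 0.157% of all genes tested were called. Dim probe sets limit the smallest differences that could be seen.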
